A study of Arabidopsis thaliana with 6 samples.

Results

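The genes described here are the photosynthesis genes that Arabidopsis carries in its plastid genome rather than in the nucleus, measured in root tips, where plastids are mostly not green. They were taken as the probe sets whose array annotation named exactly 1 plastid gene with a symbol beginning psa (photosystem I), psb (photosystem II), pet (cytochrome b6f complex), atp (ATP synthase) or ndh (NADH dehydrogenase-like complex, NDH), together with rbcL. The rule used names only and no measured value, but it was chosen with earlier results of these data known. It gave 43 probe sets for 43 genes, out of 22746 probe sets in all and 13350 genes named by a probe set of their own, with 5 for photosystem I, 15 for photosystem II, 6 for the cytochrome b6f complex, 6 for the ATP synthase, 10 for NDH and 1 for rbcL. A test was made where the mean signal over the 6 arrays exceeded 25.8, the 40th percentile of all probe sets, and 30 of the 43 passed. The other 13 lay below it and are given as values. The plastid gene ndhB is not among the 43 because its probe set listed 2 gene entries. Its signals were 20.02 and 23.3 with GA, 7.599 and 14.8 in untreated roots at 120 min, and 30.3 and 23.2 in untreated roots at 0 min.

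In thylakoid membranes, photosystem II takes electrons from water, the cytochrome b6f complex passes them on and pumps protons, photosystem I raises them to the level needed to reduce ferredoxin, and the ATP synthase uses the proton gradient. NDH feeds electrons back from ferredoxin into the chain around photosystem I, and Rubisco, whose large subunit is encoded by rbcL, fixes carbon dioxide. The plastid genome encodes core subunits of these complexes, often in shared transcription units, while the nucleus encodes the remaining subunits and much of the machinery that transcribes, splices and edits the plastid RNAs. Plastid messages are in general not stably polyadenylated, whereas the labelling used for these arrays starts from an oligo(dT) primer.

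The data came from 6 Affymetrix ATH1 arrays, with 1 array per RNA sample and 2 arrays in each of 3 groups. All seedlings were 7 days old, of the Col-0 background, and grown in continuous light on gelled medium with sucrose. The groups were root tips labelled as treated with gibberellin (GA) and collected at 120 min, untreated root tips at 120 min, and untreated root tips at 0 min. In the GA group the source was given as GA2oxOE1I with a note of gene knock out, and in both untreated groups it was Col-0, so plant line and treatment cannot be told apart. Nothing in the labels said whether replicates were separate cultures, and the p-values therefore measure the spread between these arrays, which may be partly technical.

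The arrays were compared on quality before the plastid genes were read. GA replicate 1 stood apart. Its actin control had a 3′ to 5′ signal ratio of 14.8, against 2.22 to 4.94 on the other 5 arrays, and its 25S ribosomal RNA control had a signal of 61.3, against 812 to 5288. In each group the actin ratio was higher on replicate 1 than on replicate 2. The trimmed mean signal was 100 on every array. Tissue identity could be checked with few genes, since the annotation named probe sets for 2 of 16 root markers and for 3 of 18 green tissue markers. EXPA7 and EXPA18, expansins of root hair cells, had summed signals of 449 to 527 with GA, 560 to 632 in untreated roots at 120 min and 571 to 699.7 at 0 min. The green tissue markers RCA (Rubisco activase), LHCB4.1 and LHCB4.2 (light-harvesting antenna proteins) were also measured, with summed signals of 173 to 295, 205 to 496 and 269.7 to 319 in the same order of groups. In bulk root tips, fewer cells of a type and less RNA per cell cannot be told apart.

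The main comparison asked whether GA roots differed from untreated roots at the same time, 120 min. No plastid photosynthesis gene passed the test, and none of the 13647 probe sets tested did (limma, Benjamini-Hochberg adjusted p under 0.05, percent called 0). Among the 30 tested genes the GA mean was lower for 20 and higher for 10, and their median log2 difference was -0.33, against 0.0092 over all tested probe sets. The differences ran from -0.97 for atpA to 0.42 for ndhC, and the lowest adjusted p was 0.999. At an unadjusted p under 0.05 there was 1 gene, rbcL, among the 30, while 1.11% of all tested probe sets (152) fell under that value. This count changed when single arrays were left out. The log2 difference of rbcL was -0.33 without GA replicate 1 and -1.50 without GA replicate 2. The half-width of the 95% confidence interval had a median of 0.854 over the 30 genes, so a typical gene needed a log2 difference beyond that size for its unadjusted interval to exclude 0. Over all 43 genes, 26 were lower and 17 higher with GA, with a median of -0.16.

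The shift depended on 1 of the GA arrays and on 1 of the untreated 120 min arrays. Against the mean of the untreated 120 min arrays, the 30 tested genes had a median of -0.59 on GA replicate 1 and of -0.071 on GA replicate 2. GA replicate 1 had the lowest signal of the 6 arrays for 16 of the 30 genes, whereas it was lowest for 24.6% of all tested probe sets. It was the highest of the 6 for 5 of them. Without GA replicate 1 the median difference was -0.071, and the sign of 14 of the 30 genes turned. Leaving out untreated 120 min replicate 2 instead gave a median of -0.044, and the sign of 8 of the 30 turned. That untreated array was the highest of the 6 for 13 of the 30 genes, against 16.4% of all tested probe sets. The part of RNA or labelling quality in the differences was not tested.

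**Figure D1:**
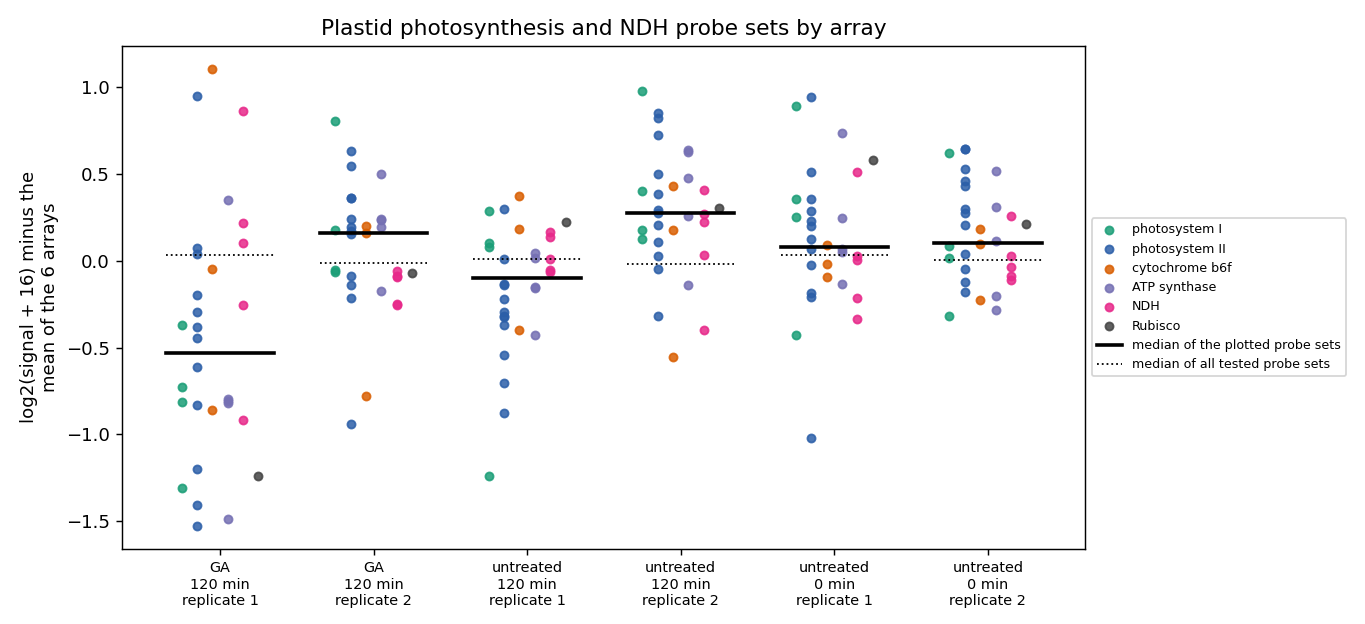
Each point is 1 of the 30 tested plastid photosynthesis genes on 1 array, given as log2(signal + 16) minus its mean over the 6 arrays, with colours for the complexes. Solid bars are medians of these genes and dotted bars are medians of all tested probe sets. The solid bar lies at -0.53 on GA replicate 1 and at 0.27 on untreated 120 min replicate 2, while the dotted bars stay near 0.

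In 7 of the 30 genes both GA arrays lay below both untreated 120 min arrays, namely ndhA, ndhD, psaJ, petB, rbcL, psaI and psbI. In none of the 30 did both lie above. Separation downwards was found for 10.3% of all tested probe sets, and separation in either direction for 21.7%, against 23.3% of the 30 genes. Over all 43 genes, 10 separated downwards and 3 upwards, and those 3 were petD, psbN and ndhG, all below the signal filter. Without the filter 10.4% of all probe sets separated downwards and 16.6% upwards. When arrays of the same replicate number were set against each other, 14 of the 30 were lower with GA within both numbers and 5 were higher within both, against 21.7% and 24.8% of all tested probe sets.

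Rubisco's large subunit gene rbcL gave the smallest unadjusted p of the 30 in this comparison. Its signals were 11.6 and 45.9 with GA, against 59.9 and 64.03 in untreated roots at 120 min and 81.0 and 59.3 in untreated roots at 0 min. Both GA arrays lay below all 4 untreated arrays, but they also lay far from each other. The mean signal was 28.7 ± 24.3 with GA and 61.9 ± 2.96 in untreated roots at 120 min (SD, n = 2 each). On the log2(signal + 16) scale the difference was -0.92 (95% interval -1.78 to -0.05), which is 1.89-fold lower on that scale, with an unadjusted limma p of 0.0401 and an adjusted p of 0.999. Its size depended on the pseudocount, at -1.37 with 1 and -0.47 with 64 in place of 16. With 1 array left out at a time it ranged from -1.50 to -0.33, smallest in size without GA replicate 1, and stayed below 0.

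Photosystem I was represented by 4 tested genes, of which 3 were lower with GA and 1 higher, with a median of -0.45. psaI, which encodes a small membrane subunit, had signals of 119.9 and 307 with GA, against 393 and 363 in untreated roots at 120 min and 606 and 323 at 0 min. The GA arrays lay below all untreated arrays here too, and the difference at 120 min was -0.91 (95% interval -1.87 to 0.05), or 1.88-fold lower, and it was -0.28 without GA replicate 1. For psaJ, another small membrane subunit, the signals were 367 and 458 with GA, 515 and 638 in untreated roots at 120 min, and 572 and 381 at 0 min. The GA arrays were below the untreated 120 min arrays but not below both 0 min arrays, and the difference at 120 min was -0.47.

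The reaction centre subunits of photosystem I are encoded by psaA and psaB, which lie next to each other and are transcribed together. psaB had signals of 342.5 and 695 with GA, 650.2 and 672 in untreated roots at 120 min, and 789 and 651 at 0 min. GA replicate 1 was the lowest array and GA replicate 2 was above both untreated 120 min arrays, so the groups overlapped and the difference of -0.42 came from replicate 1. psaA had signals of 14.5 and 72.0 with GA, 5.35 and 83.2 in untreated roots at 120 min, and 21.4 and 61.3 at 0 min. Its arrays split by replicate number in every group, with replicate 1 low throughout, and its log2 difference at 120 min was 0.17 with the widest interval of the 30 genes (-1.52 to 1.85). psaC, for the iron-sulphur subunit that hands electrons to ferredoxin, lay below the filter with signals of 5.75 to 29.3.

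Photosystem II had 12 tested genes, 8 of them lower and 4 higher with GA at 120 min, with a median of -0.15. psbM, a small membrane subunit, had signals of 3891 and 1041 with GA, 2469 and 1608 in untreated roots at 120 min, and 2305 and 1771 at 0 min. Here GA replicate 1 was the highest array of all and GA replicate 2 the lowest, and the mean difference was 0.016. psbI, also a small membrane subunit, had signals of 194 and 252 with GA, 271 and 334 in untreated roots at 120 min, and 332 and 261 at 0 min. Both GA arrays were below all untreated arrays, with a difference of -0.42 at 120 min. psbK, which shares a transcription unit with psbI, had signals of 63.8 and 311 with GA, 113 and 332 in untreated roots at 120 min, and 231 and 288 at 0 min. Its groups overlapped, and replicate 1 was the lower array in each group. psbZ, a further small subunit, had signals of 208 and 182 with GA, 171 and 269 in untreated roots at 120 min, and 213 and 185 at 0 min, with no separation between any groups.

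The gene for the reaction centre protein that is replaced most often in light, psbA, had signals of 24.9 and 88.6 with GA, 69.6 and 92.4 in untreated roots at 120 min, and 164 and 80.4 at 0 min. GA replicate 1 was the lowest and 0 min replicate 1 the highest, and the groups at 120 min overlapped, with a difference of -0.56 (95% interval -1.59 to 0.47). psbH, a small phosphorylated subunit, had signals of 31.1 and 181 with GA, 92.8 and 228 in untreated roots at 120 min, and 103 and 195 at 0 min. Replicate 1 was the lower array in each group and the groups overlapped. The difference of psbH at 120 min was -0.76 (95% interval -2.20 to 0.69), and it ran from -1.79 to 0.28 with 1 array left out at a time, the positive value being the one without GA replicate 1. The remaining tested members, psbC, psbD, psbE, psbF, psbJ and psbL, had log2 differences between -0.34 and 0.15 at 120 min. Below the filter were psbB, for an inner antenna protein, psbT, for a small subunit, and psbN, which encodes a factor for photosystem II assembly. psbN had signals of 15.1 and 18.4 with GA, 1.75 and 13.4 in untreated roots at 120 min, and 27.9 and 14.9 at 0 min.

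In the cytochrome b6f complex 1 tested gene was lower with GA and 2 were higher. petB, for cytochrome b6, had signals of 564 and 1159 with GA, 1176 and 1399.9 in untreated roots at 120 min, and 969.7 and 1177 at 0 min. GA replicate 2 lay just below the lower untreated 120 min array and GA replicate 1 far below it. The difference was -0.65 (95% interval -1.43 to 0.12), and -0.14 without GA replicate 1. petA, for cytochrome f, had signals of 257 and 309 with GA, 198 and 303 in untreated roots at 120 min, and 263 and 285 at 0 min, and its groups overlapped with a difference of 0.19. petL, a small subunit, had signals of 237 and 52.8 with GA, 136 and 64.3 in untreated roots at 120 min, and 109 and 84.6 at 0 min. Replicate 1 was the higher array of petL in each group. petD, for subunit IV, was below the filter with signals of 27.6 and 28.1 with GA, 5.95 and 13.1 in untreated roots at 120 min, and 38.6 and 18.7 at 0 min, and its untested difference of 0.80 was the highest of the 43 genes. petG and petN, both for small subunits, were at 1.73 to 30.4.

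For the ATP synthase 4 tested genes were lower with GA and 1 was higher, with a median of -0.36, and in none did the groups at 120 min separate. atpA, for the alpha subunit of the catalytic head, had signals of 265 and 909 with GA, 795 and 1205 in untreated roots at 120 min, and 806.5 and 1109 at 0 min. GA replicate 1 alone was below every untreated array, and the difference of -0.97 (95% interval -2.09 to 0.16) was the largest in size of the 43 genes in this comparison. Leaving out 1 array at a time moved it between -1.83 and -0.11. atpB, for the beta subunit that carries the catalytic sites, had signals of 808 and 2015.8 with GA, 1279.7 and 1986 in untreated roots at 120 min, and 1296 and 1541.5 at 0 min. GA replicate 1 was the lowest array of atpB and GA replicate 2 the highest.

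atpE, for the epsilon subunit of the same enzyme, had signals of 2933 and 2036 with GA, 2325 and 2086 in untreated roots at 120 min, and 2733.5 and 1890.0 at 0 min. Although atpB and atpE form 1 transcription unit, replicate 1 was the lower array in each group for atpB and the higher array in each group for atpE. atpF, for a subunit of the peripheral stalk, had signals of 43.1 and 105 with GA, 60.2 and 142 in untreated roots at 120 min, and 89.9 and 111 at 0 min, with overlapping groups. atpH, for the subunit of the membrane ring, had a difference of -0.36, and atpI, for the proton channel subunit, was below the filter.

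NDH did not share a direction among its members. Of the 5 tested genes 3 were lower and 2 higher with GA, with a median of -0.19, and over all 10 genes 5 were lower and 5 higher. ndhD, for a membrane subunit, had signals of 83.5 and 164.7 with GA, 164.8 and 211 in untreated roots at 120 min, and 251 and 208 at 0 min. GA replicate 2 and untreated 120 min replicate 1 were almost level, so the groups separated only narrowly, and the difference was -0.59 (95% interval -1.30 to 0.11), or -0.16 without GA replicate 1. ndhA, for another membrane subunit, had signals of 36.4 and 42.8 with GA, 52.8 and 67.1 in untreated roots at 120 min, and 37.9 and 47.7 at 0 min. The untreated 120 min arrays were above all other arrays for ndhA, and the GA arrays lay at about the level of the 0 min arrays.

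ndhC, a membrane subunit, had signals of 343.5 and 149.9 with GA, 206 and 134 in untreated roots at 120 min, and 141 and 177 at 0 min. The high mean with GA came from replicate 1, and the difference of 0.42 (95% interval -0.42 to 1.27) did not separate the groups. ndhI, for an iron-sulphur subunit of the arm that faces the stroma, had signals of 315 and 244.5 with GA, 296 and 345 in untreated roots at 120 min, and 294 and 275 at 0 min. ndhI had the narrowest interval of the 30 genes, with a difference of -0.19 (-0.72 to 0.34). ndhE, the remaining tested member, had signals of 24.4 to 34.8 and a difference of 0.081. Below the filter were the stromal arm genes ndhH, ndhJ and ndhK and the membrane arm genes ndhF and ndhG. ndhG had signals of 16.2 and 22.6 with GA, 12.02 and 7.35 in untreated roots at 120 min, and 31.2 and 13.1 at 0 min, which overlapped between GA and 0 min roots.

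**Figure D2:**
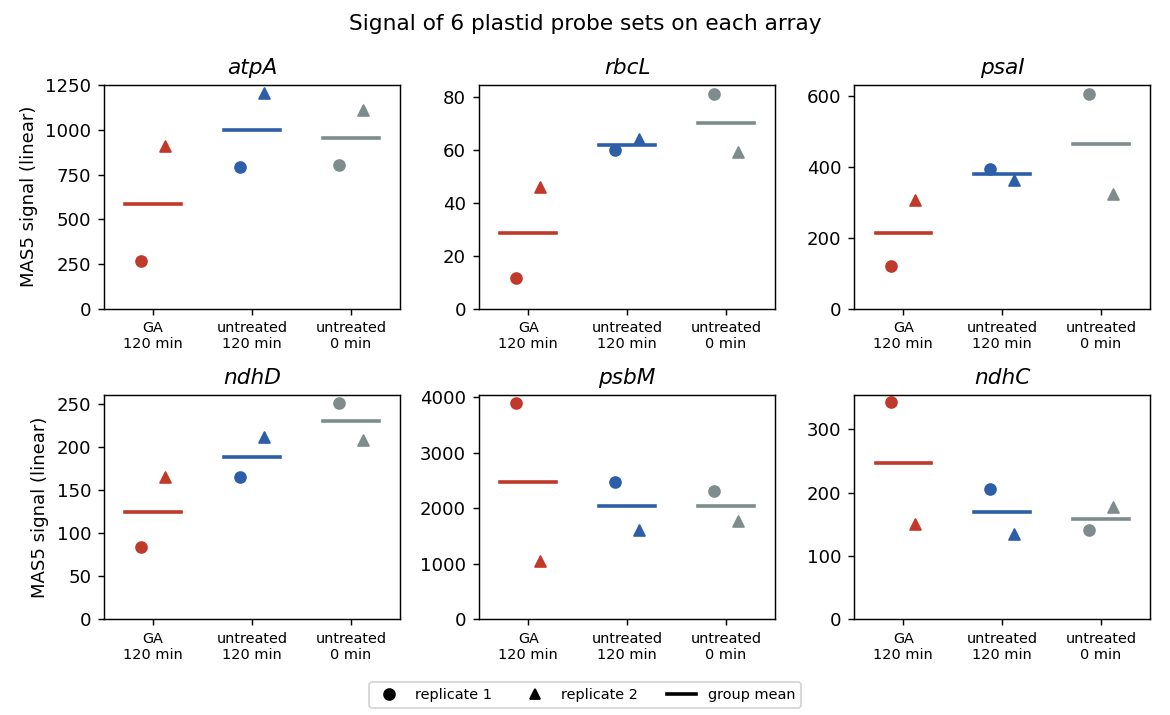
Deposited signal on a linear scale for 6 of the genes on each array, with circles for replicate 1, triangles for replicate 2 and a bar for the mean of each group of 2. For atpA, rbcL, psaI and ndhD the GA replicate 1 point is the lowest of its panel, while for psbM and ndhC it is the highest.

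**Figure D3:**
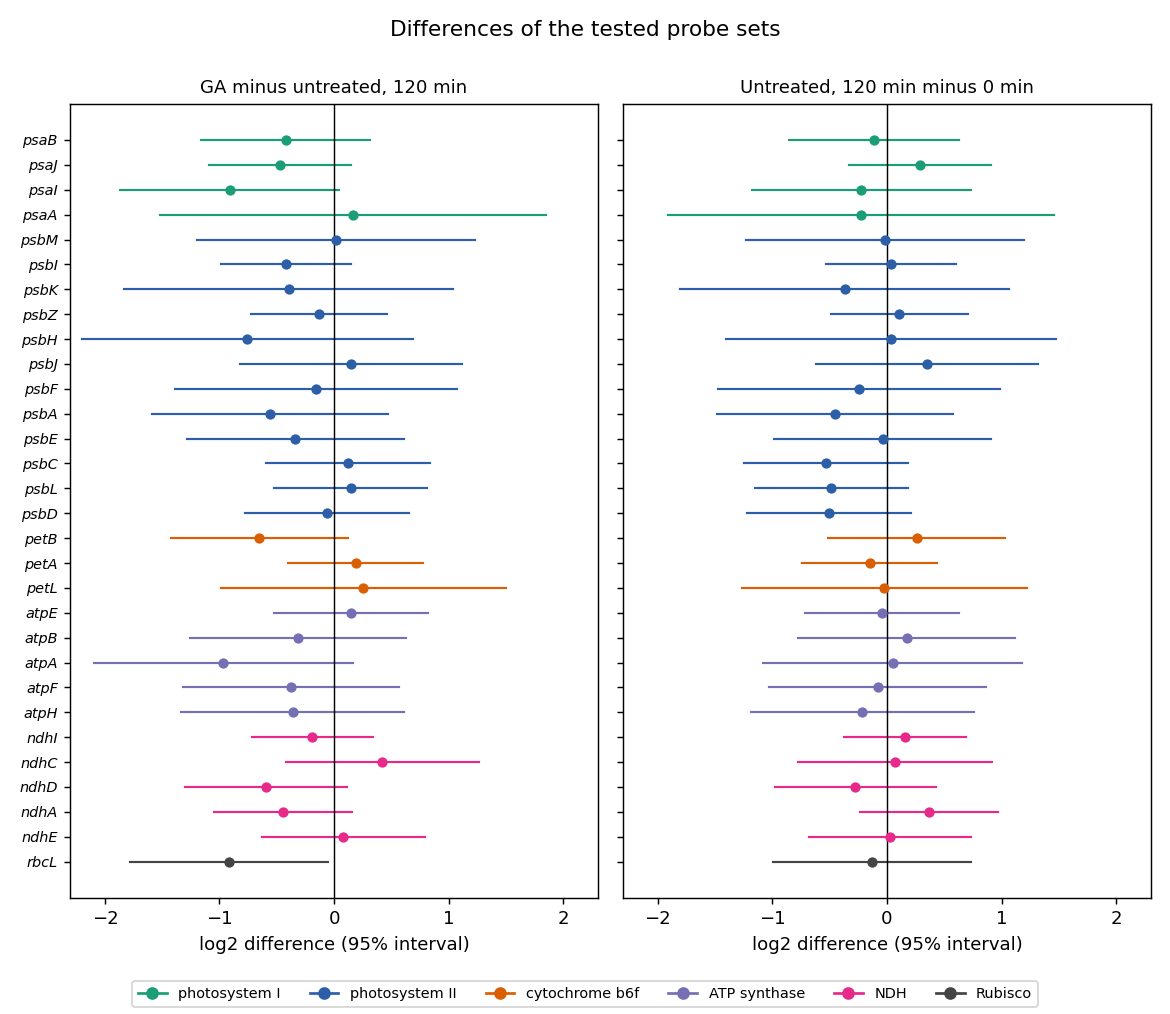
Log2 differences of the 30 tested genes with 95% confidence intervals from the limma fit, on the left for GA against untreated roots at 120 min and on the right for untreated roots at 120 min against 0 min. On the left every interval except that of rbcL includes 0, and on the right all of them do.

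Genes of 1 transcription unit were next set side by side. In the unit of atpI, atpH, atpF and atpA, the 3 tested genes all had negative differences with GA at 120 min, from -0.97 to -0.36. Without GA replicate 1 these were -0.11 for atpA, 0.14 for atpF and 0.15 for atpH. In the unit that joins psbB, psbT, psbH, petB and petD, the tested psbH and petB were at -0.76 and -0.65, and at 0.28 and -0.14 without GA replicate 1. By contrast psaI and petA, which share a unit, were at -0.91 and 0.19, and the tested members of the long ndh unit ran from -0.59 for ndhD to 0.081 for ndhE. The units themselves are background knowledge, and the neighbouring genes are not independent measurements.

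Time alone was compared in untreated roots at 120 min and 0 min. No gene of the 30 passed the test, and none of the 13647 probe sets did (limma with Benjamini-Hochberg adjustment, percent called 0). At an unadjusted p under 0.05 there were 0 of the 30, against 1.08% of all tested probe sets. In untreated roots at 120 min 18 genes were lower and 12 higher, with a median of -0.040, against -0.020 over all tested probe sets. The median was 0.16 without untreated 120 min replicate 1 and -0.18 without replicate 2, so its sign depended on the array. Groups separated for 5 of the 30 genes, 3 lower and 2 higher at 120 min, which is 16.7%, against 27% of all tested probe sets (15.8% lower, 11.3% higher).

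The 3 separated downwards were psbD, psbC and psbL, all for photosystem II, and they are named here after their values were seen. psbD and psbC, for a reaction centre protein and an inner antenna protein, overlap in the plastid genome and are transcribed together. psbC had signals of 31.9 and 59.3 in untreated roots at 120 min, against 73.4 and 68.5 at 0 min, and 37.5 and 63.95 with GA. psbD had signals of 20.02 and 30.0 in untreated roots at 120 min, against 48.1 and 36.1 at 0 min, and 23.4 and 22.8 with GA. Both genes were below both 0 min arrays on all 4 arrays made at 120 min, and their differences between untreated roots at 120 min and 0 min were -0.53 (95% interval -1.25 to 0.18) for psbC and -0.51 (-1.22 to 0.21) for psbD. For psbL, a small subunit, the difference was -0.49. The upward separated genes were ndhA at 0.37 and ndhI at 0.16. Over all 43 genes the most negative differences were those of petD, psbN and ndhG at -0.79, -0.69 and -0.54, and none of these 3 passed the signal filter.

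GA roots at 120 min were also set against untreated roots at 0 min, a comparison that shares its GA arrays with the first and its 0 min arrays with the time comparison, and that also differs in time and plant line. Again no gene of the 30 and no probe set of the 13647 passed (limma with Benjamini-Hochberg adjustment, percent called 0). With GA 24 of the 30 genes were lower and 6 higher, with a median of -0.38, against -0.012 over all tested probe sets. The median was -0.062 without GA replicate 1 and -0.75 without GA replicate 2. Groups separated for 6 genes, all lower with GA (ndhD, psbD, psbC, rbcL, psaI and psbI), which is 20%, against 28% of all tested probe sets in either direction and 15% downwards. Unadjusted p-values under 0.05 were found for 3 of the 30 genes, against 2.58% of all tested probe sets. That number was from all 6 arrays and changed when single arrays were left out.

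These 3 were psaI at -1.13 (95% interval -2.09 to -0.18), rbcL at -1.05 (-1.91 to -0.18) and ndhD at -0.87 (-1.57 to -0.17), and the limma adjusted p of each was 1. With 1 array left out at a time the differences ran from -1.76 to -0.51 for psaI, from -1.63 to -0.47 for rbcL and from -1.30 to -0.44 for ndhD, in each case smallest in size without GA replicate 1. The same genes were at -0.22, -0.13 and -0.28 in untreated roots at 120 min against 0 min. psbA, at -1.01, had a difference of comparable size with an interval of -2.04 to 0.02. Of the 12 tested photosystem II genes 11 were lower with GA, and of the 5 tested NDH genes 3 were, against 51.8% of all tested probe sets. Only psbA, psbC, psbD, psbI and psbL of the photosystem II genes, and ndhD of the NDH genes, stayed lower with each array left out in turn. The difference between the complexes was not tested.

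Replicates 1 and 2 differed for many of these genes. The log2 value of replicate 1 minus replicate 2 had a median over the 30 genes of -0.72 with GA, -0.33 in untreated roots at 120 min and 0.086 at 0 min, against 0.046, 0.034 and 0.019 over all tested probe sets. Its median size was 1.00 with GA, 0.41 in untreated roots at 120 min and 0.31 at 0 min, against 0.37, 0.28 and 0.245 over all tested probe sets. Replicate 1 was the lower array in all 3 groups for 13 of the 30 genes, or 43.3%, against 18.6% of all tested probe sets. These were ndhA, psbE, psbF, psbH, psbJ, psbK, psbL, petA, petB, psaA, atpA, atpB and atpF. Replicate 1 was the higher array in all 3 groups for petL, psbM and atpE, or 10% of the genes, against 23.6% of all tested probe sets. The actin ratio, as given above, was also higher on replicate 1 in each group, and its part in these differences was not tested.

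**Figure D4:**
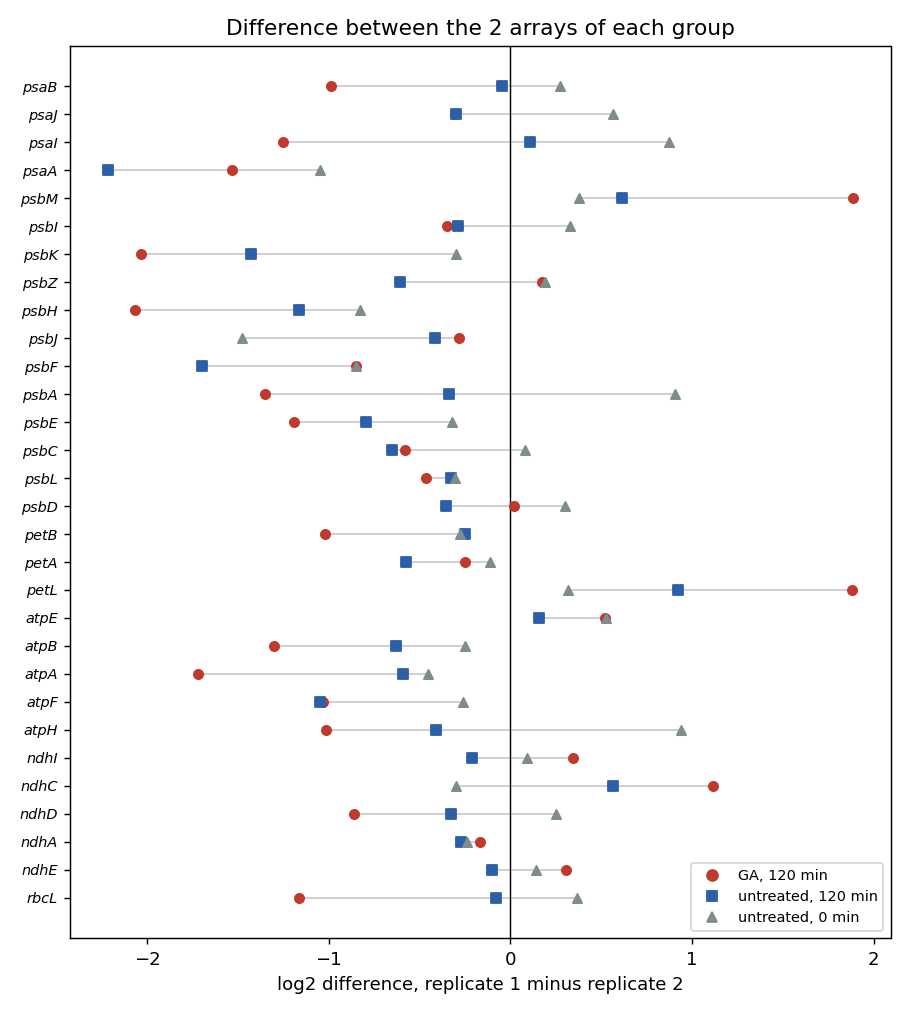
Difference of log2(signal + 16) between replicate 1 and replicate 2 for each of the 30 tested genes, with circles for GA, squares for untreated roots at 120 min and triangles for untreated roots at 0 min. The point furthest left is the untreated 120 min square of psaA at -2.22. The point furthest right is the GA circle of psbM at 1.89. Of the GA circles, that of psbH lies furthest left at -2.07, and 22 of the 30 lie left of 0.

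Gene length was looked at beside the replicate difference. Over the 30 genes Spearman's rho between gene length and replicate 1 minus replicate 2 was -0.33 with GA, -0.18 in untreated roots at 120 min and -0.17 at 0 min. This is a description across genes that share the same arrays, and genes of 1 transcription unit are not independent.

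The photosynthesis and NDH genes were compared with other organelle genes on the same arrays. The 26 other plastid probe sets, mostly for ribosomal proteins and subunits of the plastid RNA polymerase, had 23 tested members, of which 18 were lower and 5 higher with GA at 120 min, with a median of -0.32 beside the -0.33 of the photosynthesis and NDH genes. GA replicate 1 was the lowest array for 18 of those 23. Of the 23 mitochondrial probe sets 10 were tested, 5 lower and 5 higher with GA, with a median of 0.0052, and GA replicate 1 was the lowest array for 2 of them. The difference between these groups of genes was not tested.

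Nuclear genes for the same complexes were measured for few members, since the annotation named probe sets for 5 of 30 nuclear photosynthesis genes and 3 of 12 nuclear NDH genes. None of the 5 tested nuclear photosynthesis genes passed the test in any comparison, and 4 were lower and 1 higher with GA at 120 min. ATPC1, for the gamma subunit of the ATP synthase, had signals of 175 and 195 with GA, 199 and 259 in untreated roots at 120 min, and 147.5 and 185 at 0 min, and its difference at 120 min was -0.28 (95% interval -0.82 to 0.27). PSBW and PSBY, small photosystem II subunits, had differences of -0.019 and -0.20. Each of the 3 green tissue markers was lower with GA at 120 min, RCA by a log2 difference of -0.50, LHCB4.1 of -0.36 and LHCB4.2 of -0.23, and none passed. Both root markers were lower as well, EXPA7 at -0.39 and EXPA18 at -0.19.

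The nuclear NDH genes NDHN, NDHL and PIFI lay below the filter, with summed signals of 27.3 to 32.0 with GA, 28.4 to 51.0 in untreated roots at 120 min and 42.5 to 71.1 at 0 min. Of 21 nuclear genes for plastid transcription only RPOTMP, an organelle RNA polymerase, had a named probe set, and of 14 for plastid RNA maturation only CRR21, an editing factor for an ndh transcript. Both were below the filter, at 2.82 to 21.2 for RPOTMP and at 0.751 to 5.396 for CRR21. The part of changes in green tissue content in the plastid differences was not tested.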

How the data were processed

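Total RNA was labelled with biotin in a single cycle, per the labels' protocols. The authors deposited 1 intensity value per probe set and array on a linear scale. MAS5 and GCOS are named in the submitters' processing notes, and versions, their roles and a genome build are not given in the sources used here. Of 22810 probe sets, 64 array controls served only to describe quality. Of the other 22746, 13513 named 1 gene, 503 several, and 8730 were not listed in the platform annotation of 2016. All 43 genes matched RefSeq (TAIR10.1) by gene identifier, which was used for names, plastid membership and gene length only.

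Values were taken to log2(signal + 16), which understates differences of dim genes, and tested where the mean signal exceeded the 40th percentile (25.8, 13647 probe sets). Limma 3.58.1 in R 4.3.3 (lmFit, eBayes with trend) fitted all 3 groups together with 3 residual degrees of freedom and 5.80 prior ones. All tests were two-sided and adjusted by Benjamini-Hochberg over all tested probe sets at 0.05. The fit was also run on simulated data with independent noise on each array. Same-numbered replicates deviated together in the real data, so that run does not show how the test behaves on these arrays. The number of arrays limits the precision. Detection calls were not used here.

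Members and gene lists were chosen with earlier results of these data known. Values on every array are given for the 4 genes with the highest mean signal in each complex, and for the 3 with the largest difference in each comparison. They are also given for psbH, psbC and psbD, which are outside this rule, and for ndhB, which is not a member. Of each list, up to 3 of the brightest measured genes are named. Groups and replicate numbers came from the sample titles. Alternatives covered the pseudocount, the filter, normalization, the variance model, array weights, a replicate block and leaving out each array. The array weights were the same for both arrays of a group (0.639 for each GA array). That setting therefore could not weigh GA replicate 1 below GA replicate 2, and it left the log2 differences unchanged.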

Additional observations from a re-analysis of the deposited data

How the results depend on the processing

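The 15 alternatives called none of the plastid photosynthesis genes in any comparison. Leaving out 1 array at a time moved the median difference of the tested genes between -0.59 and -0.04 for GA against untreated roots at 120 min. The -0.59 came without GA replicate 2 and the -0.04 without untreated 120 min replicate 2. The median moved between -0.18 and 0.16 for untreated roots at 120 min against 0 min, and between -0.75 and -0.062 for GA against untreated roots at 0 min. In this last comparison the count over all probe sets ranged from 0 to 7, with 7 without GA replicate 2, where the lone GA array is assumed to vary like the other groups. For GA against untreated roots at 120 min, a pseudocount of 64 gave a median of -0.18, a pseudocount of 1 gave -0.38, quantile normalization -0.35 and no filter -0.16 (all 43 genes). Of the 30 tested genes 9 kept their sign under every array left out, all lower with GA (ndhI, ndhA, ndhD, psaJ, petB, rbcL, psaI, psbI and atpA). These include the 7 genes whose groups did not overlap, for which leaving out 1 array cannot turn the sign. The share of all tested probe sets that kept their sign is not given here. Replicates with the same number deviated together over all tested probe sets, with correlations of 0.342 (GA and untreated 120 min), 0.361 (GA and untreated 0 min) and 0.307 (both untreated groups), but nothing in the labels says what a number marks. In a fit blocked on replicate number, the number of calls stayed 0 in each comparison, and the lowest adjusted p of the 30 genes was 0.998, 0.999 and 0.826 in the order of the report. Over all alternatives that lowest adjusted p ranged from 0.178, 0.999 and 0.125 up to 1, and 0.178 and 0.125 came without GA replicate 2. Signals near background carry little order, which limits what can be said of the 13 genes below the filter.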
